A study of Rattus norvegicus with 5 samples.

Results

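Nppa (ENSRNOG00000008176) and Nppb (ENSRNOG00000008141), the genes of the 2 cardiac natriuretic peptides, were followed through 5 RNA-seq libraries of rat heart. The tissue is left ventricular wall by the study's methods, while the sample titles say heart. Both genes were taken by identifier, as known markers of wall stress in heart muscle and with earlier results of these data known, and are 2 of the 20646 genes listed. Male SD rats, 7 to 8 weeks old, gave 5 groups with 1 library each. Normal hearts carried no infarct. MI hearts had the left anterior descending artery ligated and received nothing more. SNAP hearts were infarcted and injected with SNAP, a nitric oxide donor, in the infarcted area. DTMS hearts were infarcted and carried the conductive polypyrrole and polyvinyl alcohol suture with a microchannel on the infarct, without SNAP. The methods give saline through the suture to a group they call shank, which was read here as DTMS. S-DTMS hearts, which the labels spell S-DTNS, were infarcted and carried the same suture with SNAP delivered through its channel. The labels give a time of 1 month, for Normal as well, without naming its starting point, whereas the methods place sampling a week after treatment. No library of sham-operated hearts was analysed here, and whether a library held RNA of 1 rat or of several is not given in the sources used here. The legend of the study's expression plots speaks of several independent biological replicates, whereas a group has a single library here, so what each value stands for is uncertain.

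Nppa encodes the precursor of atrial natriuretic peptide, and Nppb that of B-type natriuretic peptide. In the healthy adult heart Nppa is made mainly by atrial muscle and Nppb at a low level, and ventricular muscle makes more of both under stretch, overload or injury. Both hormones bind the receptor guanylyl cyclase Npr1 and raise cyclic GMP in their target cells, which promotes salt excretion and relaxes vessels. Nitric oxide raises cyclic GMP too, through soluble guanylyl cyclase.

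The 2 genes are neighbours, and the RefSeq table of GRCr8 lists 0 genes between them. Their start sites lie 12176 bases apart on the same strand of chromosome 5, Nppb first. The sequences that lead up to the start sites are shown as background. The 250 bases before each start site are from RefSeq on GRCr8, plus strand, at chr5:163711934-163712183 for Nppa and chr5:163699758-163700007 for Nppb. Capitals mark letters known from the sites of cardiac transcription factors. They are GATAA for the GATA factors, AAGTG for NKX2-5 and CATTCC for the TEAD factors, each searched on both strands, and TATAAA for the promoter element of that name, searched on the gene's strand. No 2 matches overlapped.
Nppa: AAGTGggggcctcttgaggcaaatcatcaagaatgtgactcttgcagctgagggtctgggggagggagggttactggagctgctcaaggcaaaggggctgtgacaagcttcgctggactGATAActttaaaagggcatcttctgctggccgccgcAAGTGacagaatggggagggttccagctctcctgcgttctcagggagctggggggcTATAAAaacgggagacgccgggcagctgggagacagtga
Nppb: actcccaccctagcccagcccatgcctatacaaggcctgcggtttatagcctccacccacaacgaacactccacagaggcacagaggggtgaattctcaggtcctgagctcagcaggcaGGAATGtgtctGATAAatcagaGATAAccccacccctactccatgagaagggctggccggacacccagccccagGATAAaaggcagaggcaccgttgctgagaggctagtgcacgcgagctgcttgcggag
The Nppa window held 1 GATAA, 131 to 127 bases before the start site, 2 AAGTG and 1 TATAAA, and 0 CATTCC. The Nppb window held 3 GATAA and 1 CATTCC, the latter on the opposite strand 131 to 126 bases before the start site and next to a pair of GATAA at 120 to 116 and 109 to 105 bases, and 0 AAGTG and 0 TATAAA. Of 33469 windows of the same length, 23.5% held GATAA, 40.6% AAGTG, 12.1% CATTCC and 8.06% TATAAA. These matches describe letters only and were not tied to the expression values.

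Expression was deposited as FPKM, fragments per kilobase of gene scaled to the library total, so the levels of the 2 genes can be set side by side. The deposited values could be traced back to whole fragments, with library totals of 16731024 to 17379225 fragments. Depth therefore differed little, from 0.977 to 1.02 times that of Normal. Intervals below are exact 95% intervals of the fragment counts and cover counting error only, not the variation between rats, for which 1 library per group gives no estimate. No p-value was computed. A difference of log2(FPKM + 1) of at least 1 was counted as past the limit. The study's methods give a fold-change limit of this size without naming its scale, which was read here as log2, and the q value they also require was dropped for want of replicates. The S-DTMS library stood apart, with 2000 genes past the limit in either direction against MI and 1944 against DTMS, compared with 640 to 958 in the 3 comparisons without it. Every value of S-DTMS rests on this single library.

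Nppa was at an FPKM of 665 in Normal, 456 in MI, 1479 in SNAP, 1015 in DTMS and 6954 in S-DTMS. These values rested on 10102, 6785, 22801, 15066 and 105100 fragments in the same order. The S-DTMS library thus stood far above the other 4, MI was the lowest, and the 2 single treatments lay between Normal and S-DTMS. Among the 13769 genes that reached an FPKM of 1 in any library, called tested genes from here on, Nppa held place 187 in MI, 118 in Normal, 52 in DTMS, 40 in SNAP and 7 in S-DTMS when genes were ordered from the highest FPKM. In S-DTMS 0.617% of all fragments of the library came from this single gene, against 0.0404% in MI. Each step in its order (S-DTMS, SNAP, DTMS, Normal, MI) was wider than counting error, the narrowest being SNAP over DTMS at 1.46-fold (1.43 to 1.49) and Normal over MI at 1.46-fold (1.42 to 1.51).

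Nppb was at an FPKM of 95.2 in Normal, 201 in MI, 510.5 in SNAP, 504 in DTMS and 371 in S-DTMS, from 1095, 2267, 5962, 5666 and 4246 fragments. Here the Normal library was the lowest and the library of every infarcted group was above it, with the 2 single treatments at the top and S-DTMS in the middle. The SNAP and DTMS libraries did not differ beyond counting error, with a ratio of 1.01 (0.977 to 1.05). The other neighbours in the order did, DTMS over S-DTMS by 1.36-fold (1.31 to 1.41), S-DTMS over MI by 1.85-fold (1.75 to 1.94) and MI over Normal by 2.11-fold (1.96 to 2.27). Nppb was below Nppa in each of the 5 libraries, at place 797 of 13769 in Normal and 142 in SNAP.

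**Figure D1:**
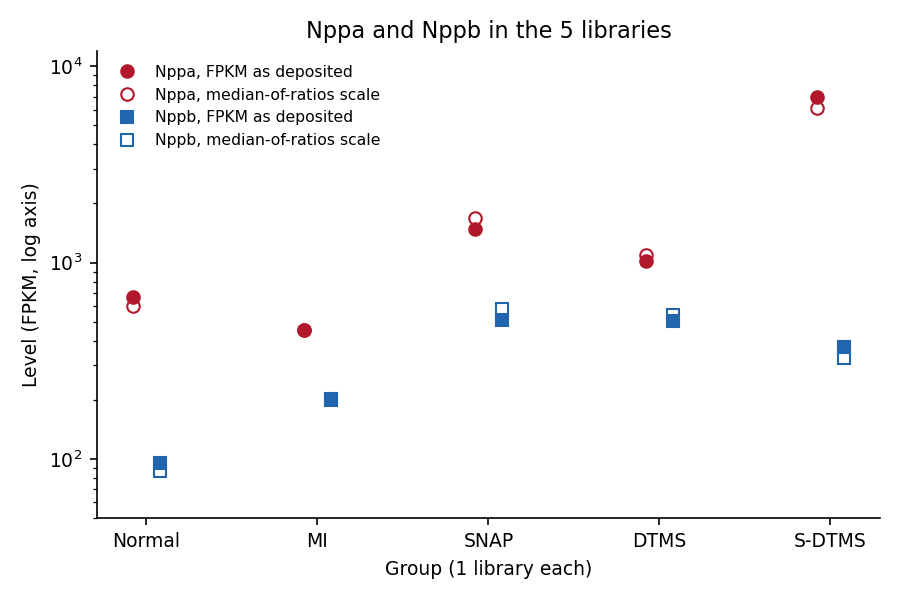
Level of Nppa (red circles) and Nppb (blue squares) in FPKM on a log axis, in the library of each group; filled points are values as deposited with exact 95% counting intervals, mostly smaller than the points, and open points are values after scaling by the median of ratios. Nppa in S-DTMS, at 6954, is the highest point of the plot, and Nppb in Normal, at 95.2, the lowest of the deposited values.

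FPKM moves with a library's few most abundant genes, so values were also scaled by the median of ratios, which brings the typical gene to the same level in every library. The median change of all tested genes, as differences of log2(FPKM + 1), was -0.12 from Normal to MI, -0.14 from MI to SNAP, -0.06 from MI to DTMS, 0.15 from MI to S-DTMS and 0.25 from DTMS to S-DTMS. On the median-of-ratios scale Nppa was 603, 454, 1681, 1092 and 6152 in Normal, MI, SNAP, DTMS and S-DTMS, and Nppb was 86.3, 200.4, 580.1, 542 and 328. The order of the 5 libraries was as before for both genes. In S-DTMS the 10 genes with the most fragments on average took up 13.3% of the library, against 16.6% to 23.2% elsewhere. All samples are bulk tissue, in which more cells of a type and more RNA per cell cannot be told apart. The files do not pair the other identifiers with gene names, so markers of atrial and ventricular muscle, the peptides' receptors and processing enzymes, and other stress genes were not analysed here, and the make-up of each tissue piece was not tested.

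Infarction without treatment is addressed by MI against Normal, in which the 2 genes differed in opposite directions. With no sham library, infarction and the surgery that caused it cannot be told apart. Compared with Normal, the MI library had 2.11 times the Nppb level (1.96 to 2.27), a log2 change of 1.07, whereas Nppa was at 0.685 times its Normal level (0.664 to 0.706), a log2 change of -0.54. Nppb was past the limit, as were 2.22% of the 13769 genes in the upward direction, and 259 genes including Nppb had a change as high. Nppa was not past it. Relative to the median of all genes the changes were 1.19 for Nppb and -0.42 for Nppa.

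The SNAP injection is addressed by SNAP against MI. In the SNAP library both genes were higher than in MI. Nppa was 3.25-fold higher (3.16 to 3.33), with a log2 change of 1.70, and Nppb 2.54-fold higher (2.42 to 2.67), with a log2 change of 1.34. Both were past the limit, which 2.32% of genes passed upward. By log2 change, 81 of the tested genes, Nppa included, had a value as high as Nppa. For Nppb the number was 161. Counted over all 20646 genes in FPKM units, the gain of 1023 in Nppa from MI to SNAP held place 9 from the largest, and the gain of 309.5 in Nppb place 26.

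The DTMS library, with the suture and no SNAP, was also above MI for both. MI received no saline, so suture and saline cannot be told apart in this comparison. Nppb was 2.51-fold higher (2.39 to 2.63), a log2 change of 1.32, and Nppa 2.23-fold higher (2.17 to 2.29), a log2 change of 1.15. Both were past the limit, against 1.46% of all tested genes in this direction. Over all tested genes, 90 had a change as high as Nppb and 134 as high as Nppa, the gene itself included. Among the 726 genes that reached an FPKM of 100 in DTMS or MI, Nppb and Nppa held places 6 and 7 from the highest change. The comparisons of SNAP, DTMS and S-DTMS with MI share the MI library, where Nppa was at its lowest.

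The S-DTMS library parted the 2 genes. Nppa was 15.3-fold higher than in MI (14.9 to 15.6), a log2 change of 3.93. Only 8 of the 13769 genes, Nppa among them, had a change as high. In FPKM units its gain of 6499 was the largest of all 20646 genes, and so were its gains of 5939 over DTMS, 5475 over SNAP and 6289 over Normal. Nppb in S-DTMS was 1.85-fold above MI (1.75 to 1.94), a log2 change of 0.88 that did not reach the limit on the deposited scale and was 0.71 on the median-of-ratios scale, but 1.02 when each library was rescaled to the same sum (TPM). Here 8.8% of genes were past the limit upward, and 11.3% had a change at least as high as that of Nppb.

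Adding SNAP to the suture was described by S-DTMS against DTMS. Nppa was 6.85-fold higher in S-DTMS (6.73 to 6.97), a log2 change of 2.77, whereas Nppb was at 0.736 times its DTMS level (0.707 to 0.766), a log2 change of -0.44. Nppa was past the limit, as were 9.51% of genes upward, and 45 genes had a change as high. Nppb was not past it, and 14.4% of genes had a change as low. On the median-of-ratios scale the 2 changes were 2.49 and -0.72.

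In S-DTMS both genes were above their Normal level. Compared with Normal, Nppa was 10.5-fold higher (10.2 to 10.7), a log2 change of 3.38, and Nppb 3.90-fold higher (3.65 to 4.17), a log2 change of 1.95. Both were past the limit, which 4.63% of genes passed upward. Compared with SNAP, S-DTMS had 4.70 times the Nppa level (4.64 to 4.77), a log2 change of 2.23, and 9.98% of genes were past the limit upward there. Nppb was at 0.726 times its SNAP level (0.698 to 0.756), a log2 change of -0.46.

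**Figure D2:**
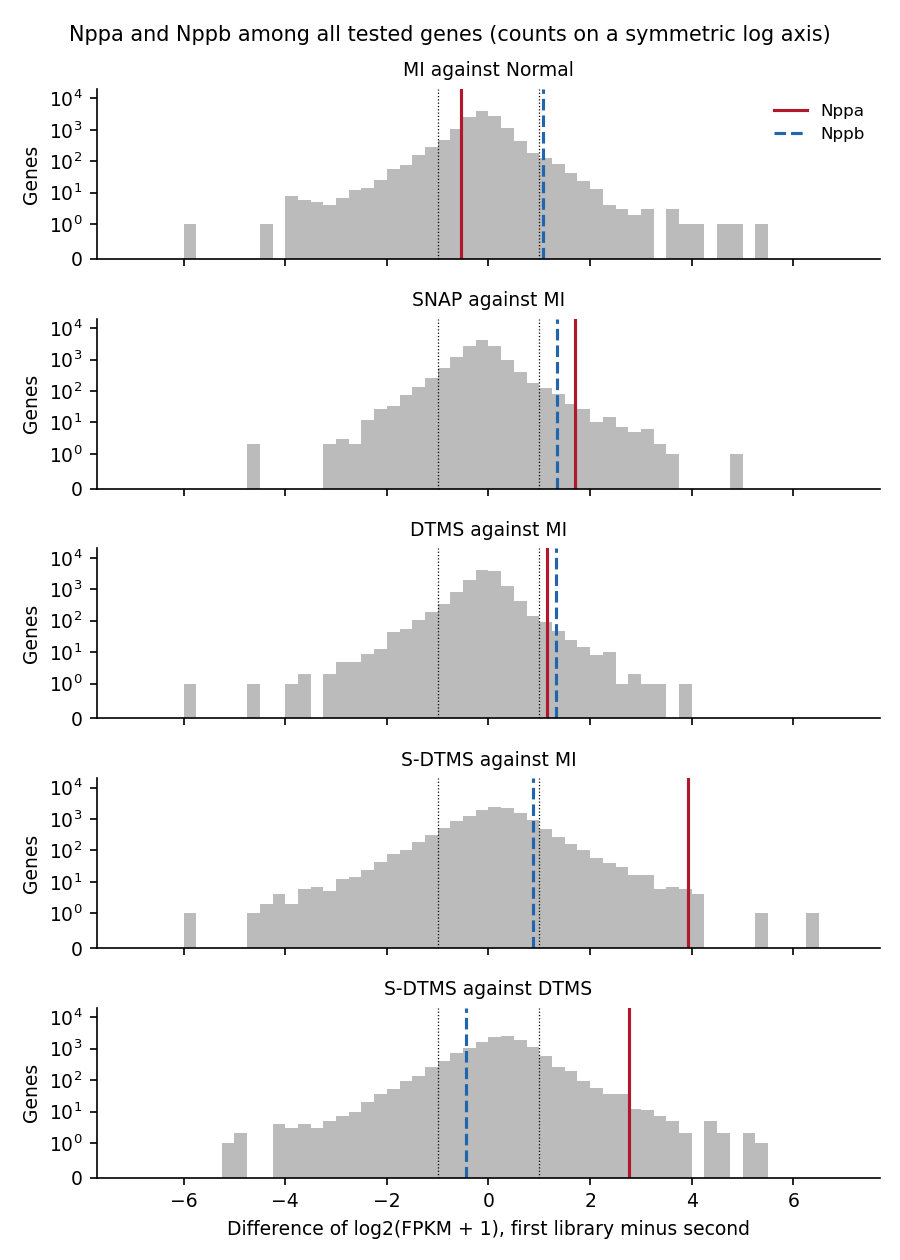
Histograms of the difference of log2(FPKM + 1) over 13769 genes for the 5 comparisons (gene counts on a symmetric log axis), with Nppa as the solid red line, Nppb as the dashed blue line and the limits of 1 and -1 as dotted lines. Nppa lies at 3.93 in S-DTMS against MI, in the far upper tail, while Nppb lies at -0.44 in S-DTMS against DTMS, inside the limits.

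**Figure D3:**
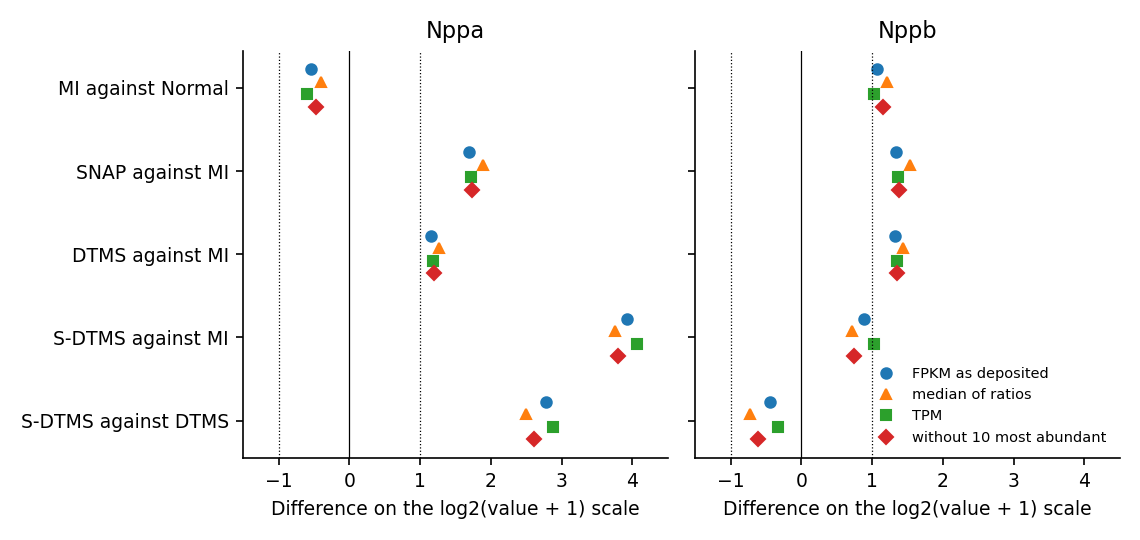
Difference on the log2(value + 1) scale for Nppa (left) and Nppb (right) in the 5 comparisons, on 4 scales: FPKM as deposited, median of ratios, TPM, and FPKM with the 10 most abundant genes taken out of the totals; dotted lines mark 1 and -1. The points of a comparison lie on the same side of 0 throughout, and only for Nppb in S-DTMS against MI do they lie on both sides of 1, from 0.71 to 1.02.

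The ratio of the 2 genes within a library does not depend on the library total. Nppa was 6.99 times as high as Nppb in Normal (6.57 to 7.45), on FPKM. In the libraries of infarcted groups without the loaded suture the ratio was lower, at 2.27 in MI (2.16 to 2.38), 2.90 in SNAP (2.82 to 2.98) and 2.01 in DTMS (1.95 to 2.08). In S-DTMS it was 18.8 (18.2 to 19.3). The 3 lower ratios thus lay close together, Normal stood above them and S-DTMS above Normal, and no 2 of the 5 intervals overlapped.

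**Figure D4:**
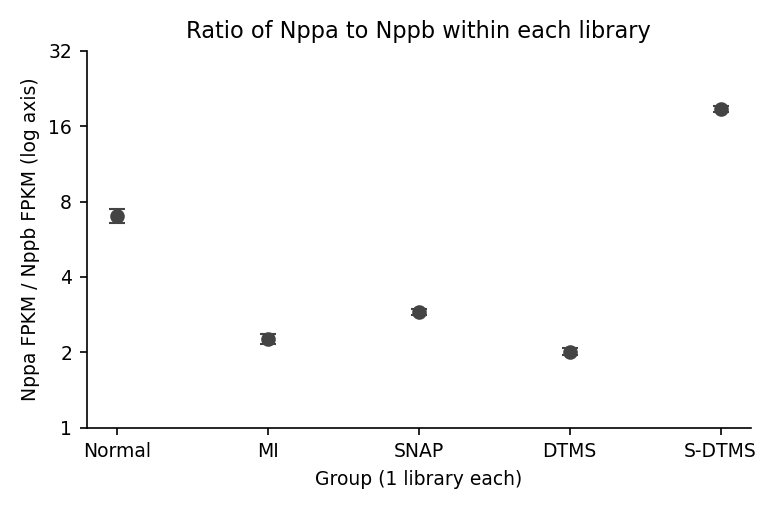
Nppa FPKM divided by Nppb FPKM within each library, on a log axis; bars are exact 95% counting intervals. MI, SNAP and DTMS lie between 2.01 and 2.90, Normal is at 6.99 and S-DTMS at 18.8.

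MI, SNAP, DTMS and S-DTMS also form a layout in which SNAP was given with or without the suture. The route of SNAP differed too, by injection into the infarct in SNAP and through the channel in S-DTMS. MI had no injection, whereas DTMS, read as the shank group of the methods, had saline through the channel. Suture, route and the giving of liquid therefore cannot be told apart here. This layout was set up after the values were seen. For Nppa, SNAP went with a log2 change of 1.70 without the suture and 2.77 with it, a difference of 1.08. Adding the 2 single changes on the log2 scale would give an FPKM of 3292 in S-DTMS, below the measured 6954. However, 16.9% of all genes had a difference of at least 1 in this direction, with a median of 0.40 over all genes, and on the median-of-ratios scale the difference for Nppa was 0.61, under the limit. The balance of all genes turned round between these scales, from 2323 genes at 1 or higher and 636 at -1 or lower as deposited to 1073 and 1282 after scaling, where the median was 0.014. For Nppb, SNAP went with a change of 1.34 without the suture and -0.44 with it, a difference of -1.78. Adding the single changes would give an FPKM of 1278, above the measured 371. A difference of -1 or lower was found for 4.62% of genes, and 176 of 13769 had a value as low as that of Nppb. On the median-of-ratios scale the difference was -2.25, 9.31% of genes were at -1 or lower and 141 had a value as low. With 1 library in each cell of the layout, none of these differences could be tested.

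Over the 5 libraries Nppa spanned 15.3-fold and Nppb 5.36-fold from the lowest to the highest. On the log2 scale these ranges were 3.93 and 2.41, compared with a median of 0.75 over the tested genes, and 0.370% and 2.62% of genes had a range as wide. In shape the genes differed, by patterns that were set up after the values were seen. Nppa in S-DTMS was above each other library by at least 2.23 on the log2 scale. This pattern, S-DTMS above each other library by at least 1, was found at 313 genes, or 2.27%. Nppb had instead its lowest value in Normal, below each other library by at least 1.07, a pattern found at 19 genes, or 0.138%. On the median-of-ratios scale the 2 patterns were found at 222 and 25 genes, Nppa and Nppb among them in turn.

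The genes closest to each member were sought among the 7156 other genes that reached an FPKM of 10 in any library, by the root mean square difference of the 5 log2 values, each profile centred on its mean. The closest to Nppa was ENSRNOG00000040350, at a difference of 0.33, with an FPKM of 101.5 in Normal, 81.6 in MI, 207 in SNAP, 93.9 in DTMS and 815 in S-DTMS. ENSRNOG00000028330 followed at 0.38, with 22.5, 9.71, 22.7, 22.1 and 134 in the same order. Both had their highest value in S-DTMS and their lowest in MI, as Nppa did, which the choice by closeness of profile favours. The closest to Nppb were ENSRNOG00000044610, at 0.41, with an FPKM of 3.65, 4.47, 10.8, 10.5 and 8.07, and ENSRNOG00000043866, at 0.42, with 268, 377, 769, 590 and 725. Both were lowest in Normal and highest in SNAP, which the choice by closeness to Nppb again favours. ENSRNOG00000044610 reached the FPKM of 10 only in SNAP and DTMS, where it was highest. Nppb itself came at place 1916 from Nppa, with a difference of 1.21, against a median of 1.32 over all genes compared. The files give no names for these identifiers, and 5 points from libraries that share a scale leave likeness of profile a description.

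**Figure D5:**
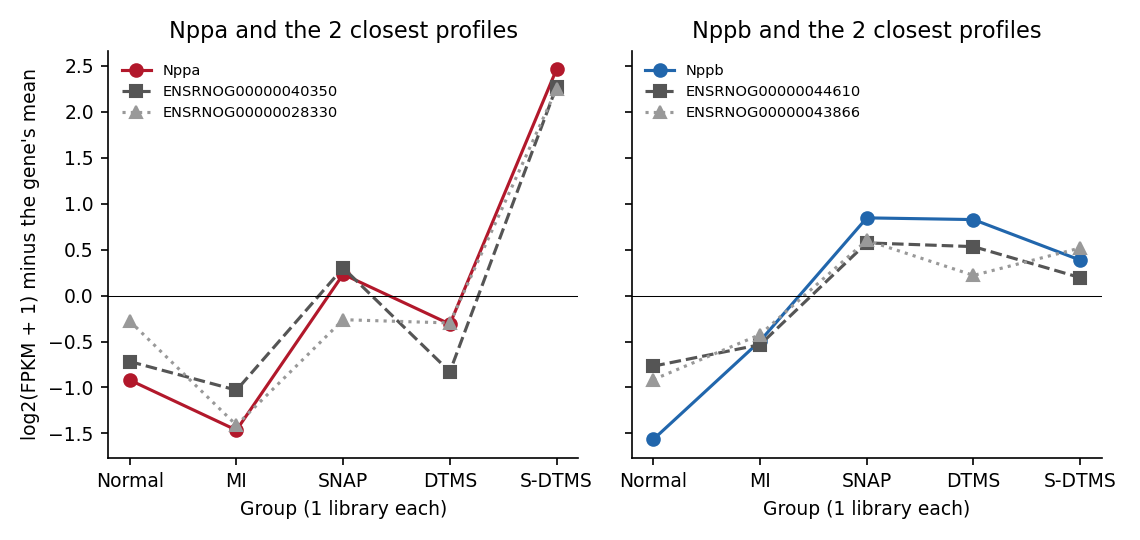
Profiles of log2(FPKM + 1) minus the gene's own mean over the 5 libraries, for Nppa (left) and Nppb (right) with the 2 closest identifiers each; lines join the points of a gene only to guide the eye. The 3 profiles on the left peak in S-DTMS, and those on the right are lowest in Normal.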

How the data were processed

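Heart tissue of 5 groups of rats, left ventricular wall by the study's methods, was sequenced on an Illumina NovaSeq instrument from NEBNext Ultra libraries, 1 per group. The authors deposited FPKM values, normalized by gene length and library total. The submitters' processing notes name HTSeq and mm9, a mouse build, although the identifiers are of rat Ensembl genes; the aligner and annotation are not given in the sources used here. The 2 genes were taken by identifier. Since 0 identifiers could be paired with symbols through the reference table, 15 gene lists (86 symbols) were not analysed.

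The commonest ratio of low FPKM values gave relative depth, and the largest total for which gene lengths became whole, within 0.02 bases, gave the library totals (97.7% of 3000 genes). Lengths of 887 bases for Nppa and 672 for Nppb then made all 5 values whole within 0.01 fragments. A common divisor of a gene's fragments would go unseen. Recovery and calls were tested on simulated data.

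Changes are differences of log2(FPKM + 1) over the genes that reached an FPKM of 1 in any library. Intervals are exact (Poisson for levels, conditional binomial for ratios). The study's edgeR test needs replicates and was not repeated. Named were both members and at most 2 identifiers of closest profile for each. The members and lists were chosen with earlier results of these data known. Alternatives were a pseudocount of 0.1 or none, median-of-ratios scaling, TPM, totals without the 10 most abundant genes and, for counts of genes, no filter, an FPKM of at least 5 and a limit of 2. The layout of SNAP and suture and the shapes over libraries were added after seeing the data. Python 3.11.15, NumPy 2.4.6, pandas 2.3.3, SciPy 1.17.1 and Matplotlib 3.10.9 were used.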

Additional observations from a re-analysis of the deposited data

Results flagged for a closer look

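The change of Nppb with SNAP had opposite signs in the libraries without and with the suture. Nppb was higher in SNAP than in MI by 1.34 on the log2 scale, whereas S-DTMS lay under DTMS with a log2 change of -0.44. Only the first of the changes was past the limit, and 14.4% of genes had a change as low as the second. The effect with the suture minus that without it was -1.78, and 4.62% of genes were at -1 or lower. It was -2.25 on the median-of-ratios scale, with 9.31% of genes at -1 or lower, and -1.70 on TPM. Each effect rests on 1 library per group, and the difference between them was not tested. SNAP was injected without the suture and delivered through the channel with it, and MI had no injection while DTMS, as read here, had saline. Suture, route and the giving of liquid thus cannot be told apart.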

How the results depend on the processing

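Each of the 10 changes of Nppa and Nppb was recomputed under 5 settings. All 50 values had the direction given above, and 49 lay on the same side of the limit, the exception being Nppb in S-DTMS against MI on TPM. Each scaling applies 1 factor per library, which shifts both genes alike. Removing or lowering the pseudocount left the 10 changes within their counting intervals. On the median-of-ratios scale Nppa changed by -0.41 from Normal to MI, 1.89 from MI to SNAP, 1.26 from MI to DTMS, 3.76 from MI to S-DTMS and 2.49 from DTMS to S-DTMS, and Nppb by 1.21 from Normal to MI, 1.53 from MI to SNAP, 1.43 from MI to DTMS, 0.71 from MI to S-DTMS and -0.72 from DTMS to S-DTMS. On TPM, the changes outside the counting interval were, for Nppa, -0.60 from Normal to MI, 4.07 from MI to S-DTMS and 2.88 from DTMS to S-DTMS, and for Nppb, 1.02 from MI to S-DTMS and -0.33 from DTMS to S-DTMS. Without the 10 most abundant genes in the library totals they were, for Nppa, -0.47 from Normal to MI, 1.74 from MI to SNAP, 3.80 from MI to S-DTMS and 2.61 from DTMS to S-DTMS, and for Nppb, 0.75 from MI to S-DTMS and -0.61 from DTMS to S-DTMS. For Nppa, the SNAP change with the suture minus that without it was 0.61 on the median-of-ratios scale. It was 0.87 without the 10 most abundant genes, and both values were under the limit.

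The upward shares given above rested on 305 genes from Normal to MI, 319 from MI to SNAP and 201 from MI to DTMS. They rested on 1211 genes from MI to S-DTMS and 1309 from DTMS to S-DTMS. In either direction, the numbers of genes past the limit were 958 from Normal to MI, 871 from MI to SNAP, 640 from MI to DTMS, 2000 from MI to S-DTMS and 1944 from DTMS to S-DTMS. With a pseudocount of 0.1 they were 1622 from Normal to MI, 1749 from MI to SNAP, 1306 from MI to DTMS, 3035 from MI to S-DTMS and 3021 from DTMS to S-DTMS. With an FPKM of at least 5, fewer genes entered, and they were 632 from Normal to MI, 571 from MI to SNAP and 354 from MI to DTMS. At a limit of 2 they were 117 from Normal to MI, 95 from MI to SNAP, 63 from MI to DTMS, 306 from MI to S-DTMS and 273 from DTMS to S-DTMS. The other 22 of 35 counts stayed within 1.5 times. Depth did not limit the 2 genes, which had 1095 fragments or more in every library. No paired analysis was possible because there is only 1 library a group, and for the same reason no library could be left out of a group.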
